A study of Homo sapiens with 8 samples.

Results

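In MM1S, a long-established cell line from a human multiple myeloma, the 4 HOX gene clusters carried trimethylation of histone H3 at lysine 4 (H3K4me3) on short, separate regions whose number and length did not differ between cells given KDM5-C70 and cells given vehicle beyond the spread of the libraries. The clusters were taken as 4 fixed windows of the GRCh37 genome, HOXA (chr7:27130000-27250000), HOXB (chr17:46604000-46808000), HOXC (chr12:54330000-54452000) and HOXD (chr2:176955000-177057000). Every region called there in any library was kept. Overlapping regions of the 8 lists (1 bp or more) were joined, and 53 of the resulting 50523 merged regions lay in the windows. HOXA held 11 of them, HOXB 16, HOXC 18 and HOXD 8.

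The study profiled H3K4me3 by chromatin immunoprecipitation and sequencing in 5 libraries from MM1S cells given DMSO, the vehicle, and 3 libraries from MM1S cells given KDM5-C70 at 50 uM for 7 days. The labels do not say how long DMSO was given. KDM5-C70 inhibits KDM5 enzymes, which remove methyl groups from lysine 4 of histone H3. No genotype change is named, all libraries come from this 1 cell line and used the same antibody lot, and the labels do not say whether libraries of a group came from separate cultures, so p-values measure the spread between libraries, which may be technical. The comparison asks how the marked regions of treated and vehicle cells differ.

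HOX genes encode homeodomain transcription factors that set position along the body axis, and their order along each cluster follows the order in which they are used in the embryo. In many cell types the clusters are kept silent by Polycomb complexes and held active by Trithorax-type complexes, which place methyl groups on lysine 4 of histone H3. In blood, genes such as HOXB4 and HOXA9 are known for their part in stem and progenitor cells, and HOXA9 is also known in leukaemia. HOXC4 is known in B cells as a regulator of the enzyme that mutates antibody genes.

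The 38 listed HOX genes fall into these clusters and are given here by rising start of their RefSeq (GRCh38.p14) gene records. HOXA runs from HOXA2, HOXA3, HOXA4, HOXA5, HOXA6, HOXA7, HOXA9, HOXA10 and HOXA11 to HOXA13. HOXB runs from HOXB1 through HOXB2 to HOXB9 and ends with HOXB13, a gene known in prostate. HOXC runs the other way, from HOXC13, HOXC12, HOXC11, HOXC10, HOXC9 and HOXC8 to HOXC4, HOXC5 and HOXC6. HOXC4 and HOXC5 share the same upstream sequence in RefSeq. The order of HOXC4, HOXC5 and HOXC6 therefore rests on record starts and may not be that of the genes themselves. HOXD runs from HOXD13, known in digit development, through HOXD12, HOXD11, HOXD10, HOXD9, HOXD8, HOXD4 and HOXD3 to HOXD1. Gene positions used here are of another build than the lists, so no called region was assigned to a single gene, and regions are named by cluster, position and a letter in rising order (HOXA region a to k, HOXB region a to p, HOXC region a to r, HOXD region a to h).

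H3K4me3 is known to lie mainly on promoters rich in CpG, the dinucleotide of cytosine followed by guanine. RefSeq (GRCh38.p14) gave the bases before the start for 20 of the 38 genes, 9 of HOXA, 1 of HOXB, 2 of HOXC and 8 of HOXD. In the 250 bases before each start, the 26 distinct HOX sequences held 0 to 40 CpG, with a median of 19.5, and 20 of the 26 held at least 11, the median of all 34788 distinct sequences in the table. At least 11 CpG stood in 50.2% of those. These counts are of starts and not of genes, and several of the HOX starts belong to HOXA3 alone, with 0 to 26 CpG. To show the sequences behind these counts, the gene with the most CpG in each cluster is printed, among genes with 1 listed start whose upstream bases touch no gene in RefSeq. No HOXC gene met that condition, and in HOXD, HOXD10 and HOXD11 were level at 23 CpG, of which HOXD10 is shown. Capitals mark CpG, and each sequence runs 5′ to 3′ toward the start. HOXA13 lies at chr7:27200092-27200341 (minus strand), HOXB1 at chr17:48531012-48531261 (minus strand) and HOXD10 at chr2:176116528-176116777 (plus strand), all on GRCh38.p14, which cannot be set against the GRCh37 positions of the called regions.

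HOXA13: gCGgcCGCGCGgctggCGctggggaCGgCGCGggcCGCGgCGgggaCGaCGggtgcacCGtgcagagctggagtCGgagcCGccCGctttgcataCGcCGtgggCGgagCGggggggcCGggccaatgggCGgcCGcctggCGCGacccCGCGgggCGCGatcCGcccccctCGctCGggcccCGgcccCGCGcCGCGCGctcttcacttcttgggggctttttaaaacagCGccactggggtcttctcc

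HOXB1: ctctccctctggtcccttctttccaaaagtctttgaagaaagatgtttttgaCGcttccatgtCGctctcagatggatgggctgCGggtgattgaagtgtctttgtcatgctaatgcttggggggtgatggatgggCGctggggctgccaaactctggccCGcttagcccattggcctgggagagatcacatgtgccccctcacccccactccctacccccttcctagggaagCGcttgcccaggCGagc

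HOXD10: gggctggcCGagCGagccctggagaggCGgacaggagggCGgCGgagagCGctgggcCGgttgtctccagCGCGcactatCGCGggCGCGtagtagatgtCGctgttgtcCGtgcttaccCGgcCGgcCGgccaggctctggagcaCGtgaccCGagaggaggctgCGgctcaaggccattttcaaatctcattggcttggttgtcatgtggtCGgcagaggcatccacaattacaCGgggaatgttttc

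HOXA13 held 40 CpG at 78% of G and C, HOXD10 held 23 at 64%, and HOXB1 held 7 at 57.2%. The letters describe the sequences only, since the called regions could not be placed on them.

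The called bases in the 4 windows were lower in short lists than in longer ones, but did not follow list length strictly among the longer ones. DMSO 3, at 32.3 Mb, held more of them than KDM5-C70 2 and 3, at 32.7 and 36.7 Mb. The lists held 15323 to 37948 regions covering 12.9 to 36.7 Mb, with depth unknown, because the lists hold no read totals. Where a library has no call, the mark may still have been there. Earlier results on these lists separate 3 libraries with shorter lists (DMSO 1, DMSO 2 and KDM5-C70 1) from the other 5, a split seen only in the data, and values within these 2 sets are given beside the pooled ones. Over all 4 windows, DMSO 1 to 5 had 30, 20, 44, 41 and 39 called regions with 20704, 12970, 39382, 30216 and 32147 bp. KDM5-C70 1 to 3 had 21, 38 and 44 called regions with 16277, 34973 and 35609 bp. The groups overlapped on both, and the 3 short lists held the lowest values of both groups.

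As a share of the called bases of a library, the 4 HOX windows together varied less. They took 0.116, 0.101, 0.122, 0.109 and 0.117% in DMSO 1 to 5 and 0.106, 0.107 and 0.0971% in KDM5-C70 1 to 3. The highest share was 1.26 times the lowest, against 3.04 times for the called bases. By cluster the highest share was 1.43 times the lowest in HOXA, 1.33 times in HOXB and 1.47 times in HOXD. In HOXC it was 5.47 times, and 2.29 times without DMSO 2, its lowest library. Without KDM5-C70 3, the lowest library of the other clusters, it was 1.31 times in HOXA, 1.19 times in HOXB and 1.26 times in HOXD. In mean over the libraries, 5.31% of the HOXA window, 5.51% of HOXB, 4.65% of HOXC and 4.41% of HOXD was called. Of 18069 tiles of 120 kb with a call in any library, 98.2, 98.5, 97.1 and 96.7% were less densely called than these windows in the same order, and the median tile was called over 0.705% of its length. The tiles were not matched to the clusters for gene content.

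**Figure D1:**
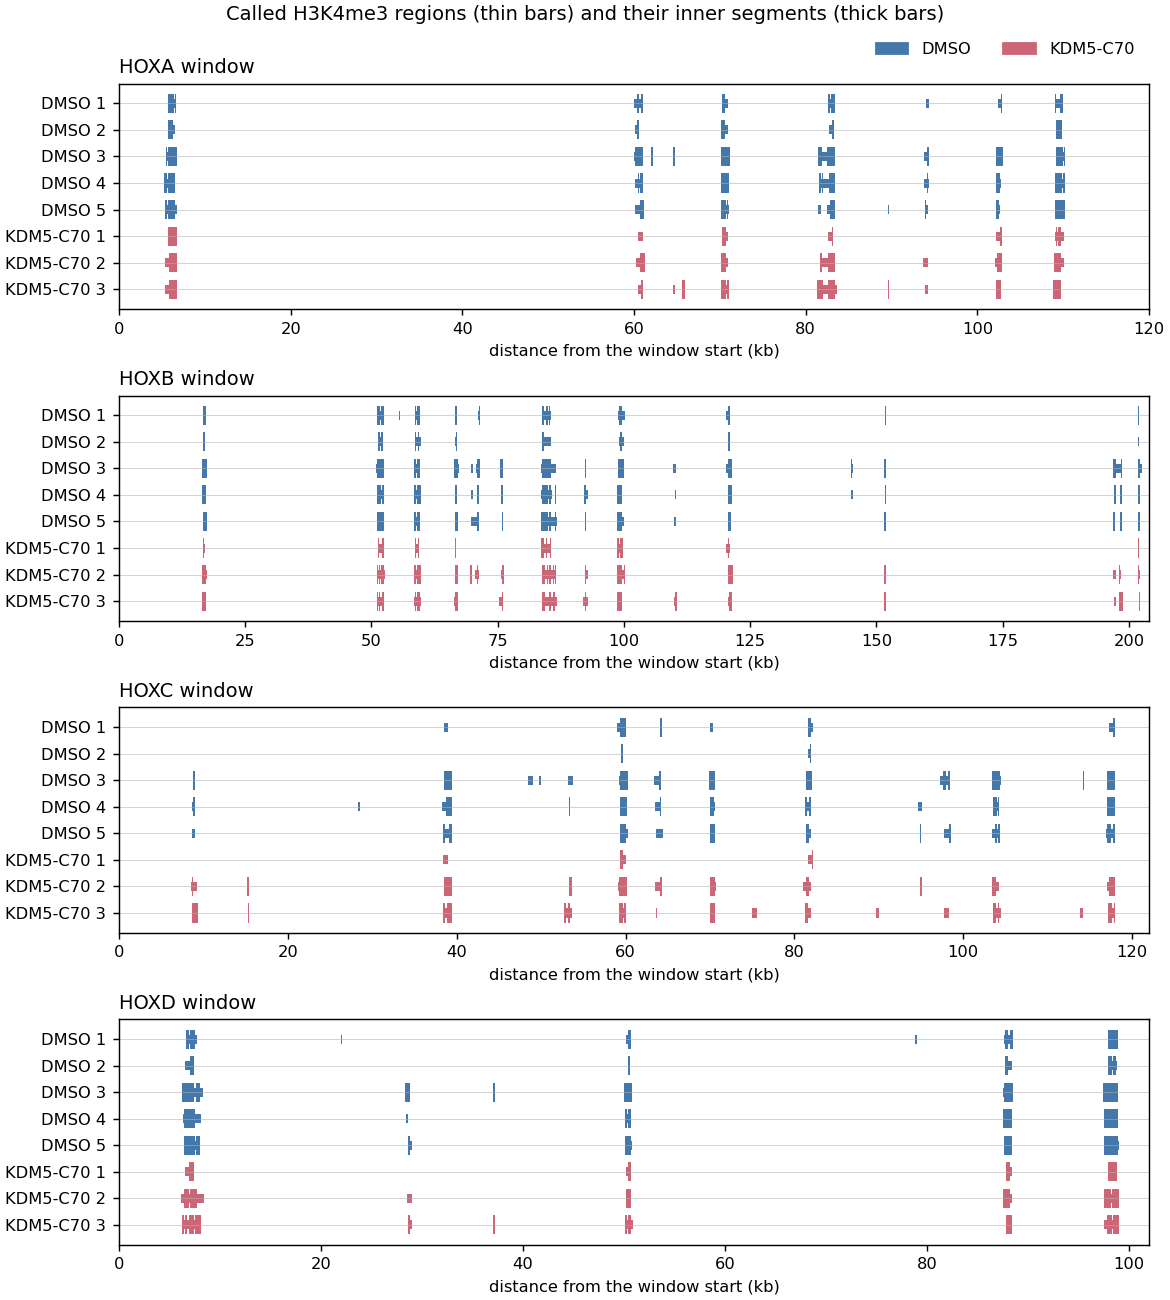
Called regions (thin bars) and inner segments (thick bars) in each of the 8 libraries, by distance in kb from the start of each GRCh37 window, with DMSO in blue and KDM5-C70 in red. The same columns recur in both groups, HOXA has a stretch of 53.2 kb with no call in any library, and many HOXC columns are missing from DMSO 1, DMSO 2 and KDM5-C70 1.

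HOXA, a cluster known for HOXA9 and HOXA10 in blood progenitors, had 7, 5, 9, 7 and 9 called regions in DMSO 1 to 5 and 6, 7 and 10 in KDM5-C70 1 to 3. Its called bases were 5373, 3336, 8321, 7203 and 6559 bp in DMSO and 4706, 7638 and 7827 bp in KDM5-C70. The means were 6158 ± 1904.7 bp (SD, n = 5) with DMSO and 6724 ± 1749.9 bp (SD, n = 3) with KDM5-C70, 565 bp apart, which is within the spread (exact permutation p = 0.75). The longest stretch of HOXA without a call in any library ran from chr7:27136766-27189962, 53.2 kb, between region a near the HOXA2 end of the window and region b. The other calls lay beyond it, toward HOXA13.

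HOXB, the cluster of HOXB4, had 11, 9, 16, 18 and 15 called regions in DMSO 1 to 5 and 8, 15 and 14 in KDM5-C70 1 to 3. Its called bases were 8291, 6276, 16063, 11627 and 13205 bp in DMSO and 6903, 13928 and 13680 bp in KDM5-C70. The means were 11092 ± 3889 bp (SD, n = 5) and 11504 ± 3986 bp (SD, n = 3), with a difference of 411 bp (exact permutation p = 0.893). At its upper end, where HOXB13 lies far from the other genes, chr17:46755982-46800815 held no call in any library over 44.8 kb.

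HOXC was the least evenly called cluster. It had 6, 2, 13, 11 and 10 called regions in DMSO 1 to 5 and 3, 11 and 14 in KDM5-C70 1 to 3. Its called bases were 3217, 658, 9001, 6669 and 7506 bp in DMSO and 1874, 7677 and 8769 bp in KDM5-C70. The highest library had 13.7 times the bases of the lowest in HOXC, against 2.49 times in HOXA, 2.56 times in HOXB, 2.22 times in HOXD and 2.84 times in whole lists. Without DMSO 2, the lowest library, the ratio in HOXC was 4.803. The group means were 5410.2 ± 3401 bp (SD, n = 5) and 6107 ± 3706 bp (SD, n = 3), with a difference of 696 bp (exact permutation p = 0.821).

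HOXD, known for its part in limb development, had 6, 4, 6, 5 and 5 called regions in DMSO 1 to 5 and 4, 5 and 6 in KDM5-C70 1 to 3. Its called bases were 3823, 2700, 5997, 4717 and 4877 bp in DMSO and 2794, 5730 and 5333 bp in KDM5-C70. The means were 4423 ± 1235 bp (SD, n = 5) and 4619 ± 1593 bp (SD, n = 3), with a difference of 196 bp (exact permutation p = 0.857). Single libraries set the sign of the differences in called bases in all 4 clusters. Without DMSO 2 the difference was -140.3 bp in HOXA, -793 bp in HOXB, -492 bp in HOXC and -234.5 bp in HOXD. Without DMSO 1 it was -289 bp in HOXB. Without KDM5-C70 2 it was -801 bp in HOXB, -88.7 bp in HOXC and -359 bp in HOXD, and without KDM5-C70 3 it was -677, -635 and -161 bp in the same clusters.

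The numbers of called regions did not separate the groups either. KDM5-C70 minus DMSO was 0.267 regions in HOXA (exact permutation p = 1), -1.47 in HOXB (exact permutation p = 0.607), 0.933 in HOXC (exact permutation p = 0.786) and -0.2 in HOXD (exact permutation p = 1). In total 16 such comparisons were made, 4 measures in 4 clusters, 2-sided over the 56 ways to divide 8 libraries into 5 and 3, with unadjusted p, of which the smallest possible is 0.0357. None of the 16 reached it. Within the 5 libraries with longer lists, KDM5-C70 2 and 3 had a mean of 7733 bp in HOXA and DMSO 3, 4 and 5 had 7361 bp. The same means were 13804 and 13632 bp in HOXB, 8223 and 7725 bp in HOXC and 5532 and 5197 bp in HOXD. Among the 3 short lists, KDM5-C70 1 had 4706 bp in HOXA against a mean of 4355 bp in DMSO 1 and 2, and lay below their mean in HOXB (6903 against 7284 bp), HOXC (1874 against 1938 bp) and HOXD (2794 against 3262 bp).

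The lowest p of the 16 belonged to the share of a library's called bases that fell in HOXB. It was 0.0465, 0.0487, 0.0498, 0.0419 and 0.048% in DMSO 1 to 5 and 0.0449, 0.0426 and 0.0373% in KDM5-C70 1 to 3. The KDM5-C70 values lay below 4 of the 5 DMSO libraries, and DMSO 4 lay among them. The means were 0.047 ± 0.00306% (SD, n = 5) and 0.0416 ± 0.00388% (SD, n = 3), which did not pass (exact permutation p = 0.107). The share was lower with KDM5-C70 in both sets of libraries, at 0.04% against 0.0466% in the 5 longer lists and 0.0449% against 0.0476% in the 3 shorter ones. For HOXA, HOXC and HOXD the exact permutation p was 0.679, 0.929 and 0.214.

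**Figure D2:**
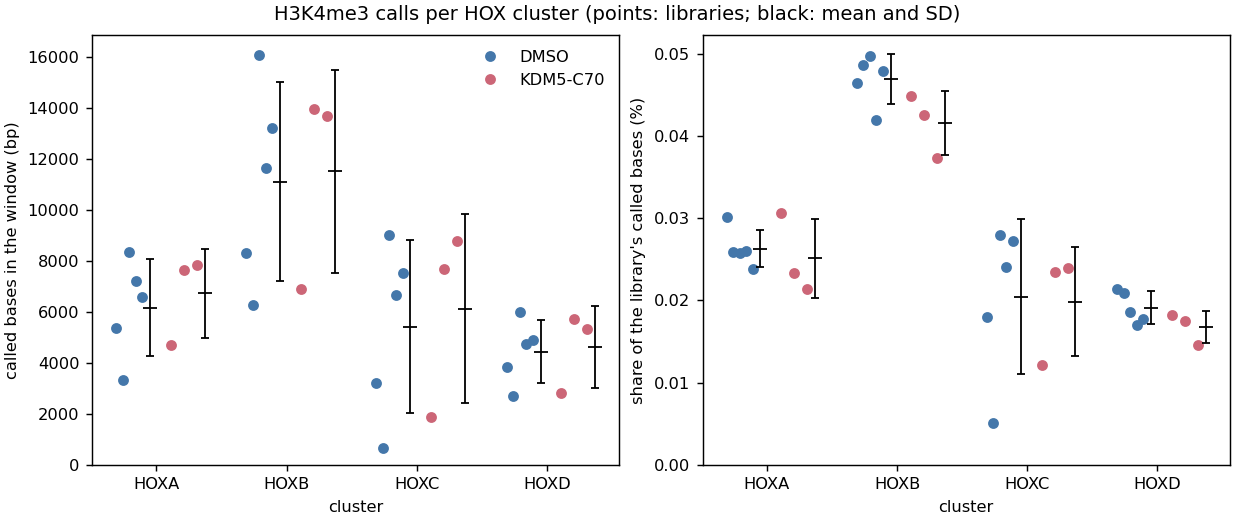
Called bases per cluster window (left, bp) and their share of all called bases of the library (right, %), with 1 point per library, DMSO in blue (n = 5) and KDM5-C70 in red (n = 3), and black bars for mean and SD. The groups overlap in every cluster on both scales, with the HOXB share between 0.0373 and 0.0449% in KDM5-C70 and between 0.0419 and 0.0498% in DMSO.

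The same windows were also set in a fit over the genome. Called bases were compared with limma over 13039 windows, the 4 clusters and tiles of 120 kb elsewhere, on the log2(called bases + 200 bp) scale. The log2 change between KDM5-C70 and DMSO was 0.15 (SE 0.33) for HOXA, 0.06 (SE 0.39) for HOXB, 0.30 (SE 0.77) for HOXC and 0.04 (SE 0.32) for HOXD, beside a median of 0.21 over all windows, and limma's adjusted p was 1 to the third digit for each. None of the 4 clusters was called, and over all windows limma called 0% (0 of 13039, with 35 at an unadjusted p under 0.05, none of them a HOX cluster). In 0.307% of windows all KDM5-C70 values lay above all DMSO values and in 0.123% below them, and in none of the 4 clusters did the groups separate. With each library centred on its median the log2 changes in HOXA, HOXB and HOXD turned to -0.06, -0.15 and -0.16, and HOXC was at 0.10.

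Recurrence is given first by cluster and then by group, with no test between clusters. Of the 53 merged regions, 19 (35.8%) were called in all 8 libraries, against 27.2% of all merged regions, and 9 (17%) in 1 library, against 31.7%. All 8 libraries called 5 of 11 regions in HOXA, 8 of 16 in HOXB, 4 of 8 in HOXD and 2 of 18 in HOXC. In HOXC 12 of 18 regions were called in none of the 3 short lists, against 4 of 11 in HOXA, 5 of 16 in HOXB and 2 of 8 in HOXD. Over all merged regions that share was 54.9%, so HOXC, at 66.7%, lay above it and the other clusters below. Within the 5 longer lists, every library called 7 of 11 regions in HOXA, 12 of 16 in HOXB, 8 of 18 in HOXC and 5 of 8 in HOXD. Over all merged regions it was 44.6%, near the 44.4% of HOXC.

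By group, 21 of the 53 regions (39.6%) were called in all 3 KDM5-C70 libraries and 19 (35.8%) in all 5 DMSO libraries, against 30.8 and 27.9% of all merged regions. The pair beyond the 19 were HOXA region j (chr7:27232013-27232934) and HOXC region d (chr12:54368297-54369491), both missing from DMSO 2 alone. No HOX region was called in every library of a group and in none of the other, and over the genome 1 region was called so in KDM5-C70 and 4 in DMSO. KDM5-C70 libraries alone called 4 regions (7.55%) and DMSO libraries alone called 8 (15.1%), all in 1 or 2 libraries. Over all merged regions these shares were 20.02 and 16.91%, in the other order. Of these, HOXC region b (chr12:54345122-54345431) was called in KDM5-C70 2 and 3, at 289 and 184 bp, and in no DMSO library. The other 3 in KDM5-C70 were HOXA region e and HOXC regions k and m, all called in KDM5-C70 3, the longest list. Calls made by DMSO alone in 2 libraries were HOXB region c (DMSO 1 and 2, 300 and 146 bp) and HOXB region m (DMSO 3 and 4, 458 and 499 bp). The shortest region in any list was 146 bp, so the smallest of these lie at that floor.

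**Figure D3:**
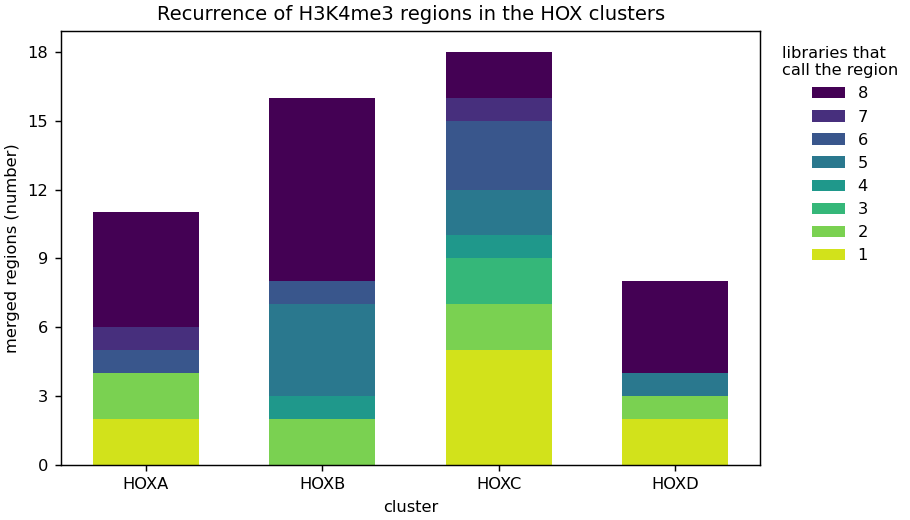
Number of merged regions in each cluster, stacked by how many of the 8 libraries call them (1 in yellow to 8 in dark purple). HOXB and HOXD have 8 of 16 and 4 of 8 regions called in every library, and HOXC 2 of 18.

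The 19 regions called in every library are given next by cluster, with called widths in bp and the log2 change of KDM5-C70 against DMSO from limma over the 13729 such regions of the genome. In HOXA, region a (chr7:27135288-27136765), at the HOXA2 end, had 945, 801, 1306, 1248 and 1327 bp in DMSO 1 to 5 and 1022, 1402 and 1411 bp in KDM5-C70 1 to 3 (log2 change 0.20, SE 0.25). Region b (chr7:27189963-27191232) had 1042, 452, 1092, 957 and 1071 bp in DMSO and 617, 1017 and 555 bp in KDM5-C70 (-0.32, SE 0.36). DMSO 2 was the lowest of region b, with KDM5-C70 3 and KDM5-C70 1 next and the other DMSO libraries near 1 kb. Region f (chr7:27200092-27201193) had 725, 780, 1102, 967 and 881 bp against 709, 862 and 872 bp (-0.12, SE 0.24). Region g (chr7:27211285-27213637) was the widest of HOXA, with 779, 596, 1951, 1772 and 1252 bp in DMSO and 666, 1802 and 2353 bp in KDM5-C70 (0.30, SE 0.49). It divided the libraries by the length of their lists, with at most 779 bp in the 3 short lists and at least 1252 bp in the others. Region k (chr7:27238857-27240268), at the HOXA13 end, had 997, 707, 1143, 1128 and 1069 bp against 1036, 1171 and 905 bp (0.05, SE 0.24).

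In HOXB, region h (chr17:46687636-46690784) was the widest of all 53. It had 1884, 1820, 2988, 2240 and 3149 bp in DMSO 1 to 5 and 1880, 2886 and 2942 bp in KDM5-C70 1 to 3 (log2 change 0.10, SE 0.24). The 3 short lists again had the lowest values, 1820 to 1884 bp. Region b (chr17:46654937-46656688) had 1285, 1006, 1493, 1293 and 1339 bp against 1137, 1639 and 1575 bp (0.17, SE 0.21). Region d (chr17:46662386-46663892) had 910, 1129, 1233, 1323 and 1182 bp against 944, 1328 and 1507 bp (0.11, SE 0.23). In both, KDM5-C70 2 and 3 were above all 5 DMSO libraries and KDM5-C70 1 was among the lowest. Region j (chr17:46702574-46704196) had 1267, 923, 1236, 978 and 1277 bp against 1037, 1623 and 1083 bp (0.12, SE 0.23). Region l (chr17:46724128-46725523) had 858, 310, 1134, 752 and 717 bp against 971, 935 and 815 bp (0.38, SE 0.39), the highest log2 change of the 19. Its KDM5-C70 values lay close together inside the DMSO range. Without DMSO 2 its log2 change was 0.088.

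The other HOXB regions called in every library were narrower. Region a (chr17:46620421-46621466), at the HOXB1 end, had 513, 397, 1011, 694 and 898 bp in DMSO against 469, 901 and 761 bp in KDM5-C70 (log2 change 0.05, SE 0.38). Region e (chr17:46670252-46671262) had 349, 320, 893, 531 and 492 bp against 281, 601 and 877 bp (0.13, SE 0.45). Region p (chr17:46805730-46806626), at the HOXB13 end, had 288, 225, 897, 370 and 377 bp against 184, 543 and 342 bp (-0.23, SE 0.50). In all 3 the groups overlapped, and DMSO 3 had the widest call.

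In HOXC, region h (chr12:54389030-54390319) had 1049, 245, 1013, 798 and 1025 bp in DMSO 1 to 5 and 686, 1026 and 880 bp in KDM5-C70 1 to 3 (log2 change 0.22, SE 0.48). Region l (chr12:54410999-54412180) had 583, 413, 727, 623 and 629 bp against 605, 916 and 650 bp (0.28, SE 0.29). These were the only HOXC regions that DMSO 2 called. Other wide HOXC calls were missing from 1 or more of the short lists. Region d had 444, 1024, 1159 and 1081 bp in DMSO 1, 3, 4 and 5 and 583, 970 and 1147 bp in KDM5-C70. Region r (chr12:54446909-54447994), at the end of the window where HOXC4, HOXC5 and HOXC6 lie, had 651, 954, 898 and 1086 bp in DMSO 1, 3, 4 and 5 and 949 and 792 bp in KDM5-C70 2 and 3. Region p (chr12:54433368-54434436) had 1069, 716 and 921 bp in DMSO 3, 4 and 5 and 838 and 929 bp in KDM5-C70 2 and 3, and was called in no short list.

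In HOXD, region a (chr2:176961121-176963393), at the HOXD13 end, was the widest, with 1079, 886, 2088, 1718 and 1549 bp in DMSO 1 to 5 and 869, 2273 and 1862 bp in KDM5-C70 1 to 3 (log2 change 0.14, SE 0.37). Region h (chr2:177052415-177054057), at the HOXD1 end, had 977, 896, 1550, 1416 and 1476 bp against 857, 1496 and 1525 bp (0.02, SE 0.28). Both divided the libraries by the length of their lists, with every short list below every longer one. Region e (chr2:177004990-177005855) had 543, 230, 783, 538 and 682 bp against 451, 507 and 738 bp (0.10, SE 0.41). Region g (chr2:177042501-177043522) had 845, 688, 968, 881 and 760 bp against 617, 966 and 657 bp (-0.17, SE 0.26). Region e lay near the middle of the window and region g close to region h, and chr2:177005856-177033808 held no call over 28 kb.

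**Figure D4:**
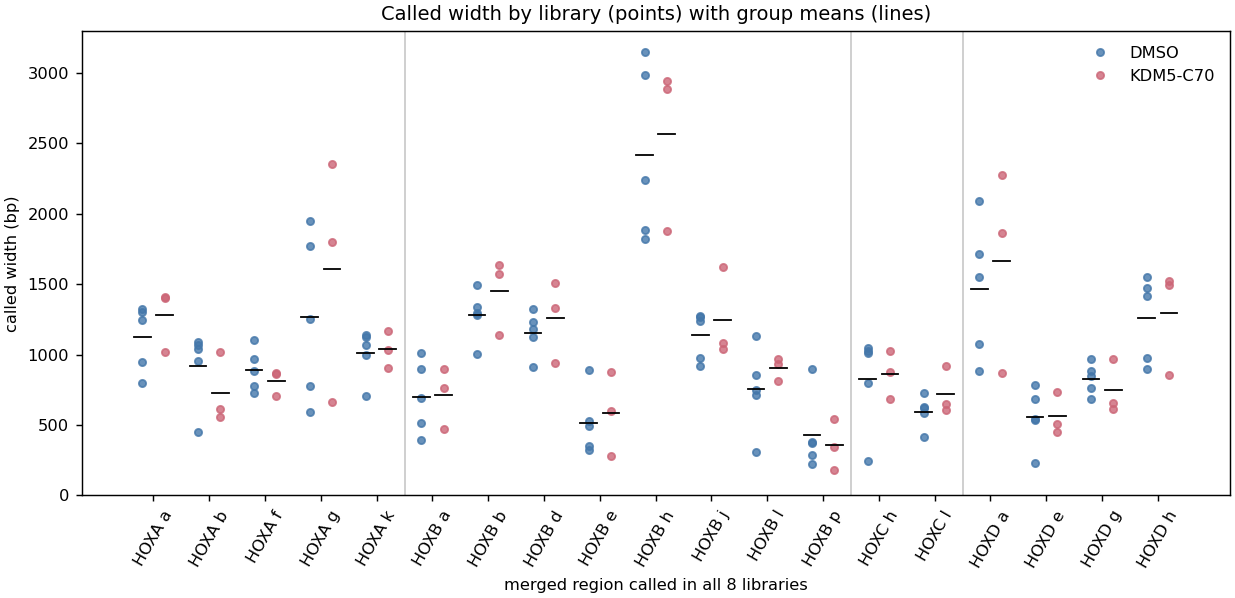
Called width in bp of the 19 HOX regions called in all 8 libraries, with 1 point per library (DMSO blue, KDM5-C70 red) and lines for group means. HOXB region h is the widest, between 1820 and 3149 bp, and the groups overlap in all 19.

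None of the 19 regions passed, with limma adjusted p between 0.994 and 0.998, and limma called 0% of all 13729 regions (242 at an unadjusted p under 0.05, none of them in HOX). In none of the 19 did the 3 KDM5-C70 widths separate from the 5 DMSO widths, while over the genome they lay above in 0.954% and below in 0.605% of regions. The log2 change was above 0 in 15 of the 19 with a median of 0.11, beside 75.1% and 0.14 over all regions. With each library centred on its median it was above 0 in 6 of 19, with a median of -0.05, beside 46.9% and -0.02. The sign turned with the centring in 9 of the 19. The standard errors of the 19 ranged from 0.21 to 0.50.

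Called regions can hold inner segments, the stronger stretches inside a broader call, though some held none. The share of the called bases in inner segments was the measure that separated the groups over whole lists. There it was 68.2, 69.3, 76.3, 68.3 and 71.7% in DMSO 1 to 5 and 58.4, 58.2 and 56.5% in KDM5-C70 1 to 3. In the 4 HOX windows together it was 60.7, 53.6, 76.3, 75.3 and 69.7% in DMSO and 53.7, 65.3 and 63.7% in KDM5-C70. The HOX values overlapped between groups, with KDM5-C70 minus DMSO at -6.25 percentage points against -13.0 in whole lists. In DMSO 1, 2 and 5 and KDM5-C70 1 the HOX share lay below that of the list, in DMSO 4 and KDM5-C70 2 and 3 above it, and in DMSO 3 it was the same to the third digit. A test of this contrast was not made.

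By cluster, the inner share was 67.8 ± 10.8% (SD, n = 5) with DMSO and 59.3 ± 8.11% (SD, n = 3) with KDM5-C70 in HOXA (exact permutation p = 0.321). It was 67.6 ± 13.3% and 62.7 ± 4.78% in HOXB (exact permutation p = 0.607), 59.6 ± 10.9% and 49 ± 22.6% in HOXC (exact permutation p = 0.464) and 77.9 ± 14.4% and 68.9 ± 4.91% in HOXD (exact permutation p = 0.357). All 4 means were lower with KDM5-C70, and none differed beyond the spread. Without KDM5-C70 1 the HOXC difference turned from -10.6 to 1.78 percentage points. Within the 5 longer lists, HOXD was at 65.1 and 74.4% in KDM5-C70 2 and 3 and at 89.6, 80.9 and 91.1% in DMSO 3, 4 and 5. HOXB was at 67.3 and 63% against 70.7, 82.1 and 73%. HOXA and HOXC overlapped there. Such separation was common in this set, with KDM5-C70 below DMSO in 45.1% of all regions called in all 8 libraries. The share of windows that separated in this way was not counted. Among the 3 short lists, KDM5-C70 1 lay above the mean of DMSO 1 and 2 in HOXB (57.7 against 56.1%) and HOXD (67.1 against 63.8%), and below it in HOXA (51.6 against 58.8%) and HOXC (24.2 against 55.3%).

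Region by region, the mean inner share was lower with KDM5-C70 in 17 of the 19 HOX regions, with a median difference of -9.16 percentage points, beside 84.2% of all 13729 regions and a median of -10.8. All 3 KDM5-C70 libraries lay below all 5 DMSO libraries in 2 of the 19, where 12.2% of all regions did so. One was HOXB region b, with 83.1, 68.3, 92.8, 80.5 and 89.8% in DMSO and 59.4, 53.8 and 64% in KDM5-C70. The other was HOXC region l, with 60.7, 46.7, 100, 50.7 and 50.7% in DMSO and 24.1, 40.3 and 39.8% in KDM5-C70. Within the 5 longer lists KDM5-C70 lay below DMSO in 5 of the 19, where 45.1% of all regions did so. Those were HOXA regions a and f, HOXB region b, HOXC region l and HOXD region h. In the other regions the groups overlapped. HOXA region b held no inner segment in KDM5-C70 1 and HOXB region p none in DMSO 2. This count by region was chosen after the data were seen.

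Stricter lists, made of regions whose deposited -log10 q-value was at least 5, turned the direction of the called bases. KDM5-C70 minus DMSO then was -1387 bp in HOXA, -4141 bp in HOXB, -2817 bp in HOXC and -1868 bp in HOXD (exact permutation p between 0.0714 and 0.286). HOXB then had 5, 4, 13, 5 and 5 regions in DMSO 1 to 5 and 3, 2 and 0 in KDM5-C70 1 to 3, a difference of -4.73 (exact permutation p = 0.0357, the smallest possible). This limit keeps 41.7 to 64.3% of the regions in DMSO lists and 9.65 to 21.9% in KDM5-C70 lists. As a share of the bases left in a list, KDM5-C70 minus DMSO was 0.0256% in HOXA (exact permutation p = 0.75). It was 0.0129% in HOXB (exact permutation p = 0.75), 0.00201% in HOXC (exact permutation p = 0.893) and -0.00965% in HOXD (exact permutation p = 0.143). The HOXB share was 0.134, 0.0249 and 0% in KDM5-C70 1 to 3, against 0.0309 to 0.0494% in DMSO. The numbers of regions were not tested against the shortened lists. With lists of equal length, made of the widest 15323 regions of each, HOXB had 6, 9, 7, 4 and 6 regions in DMSO and 6, 5 and 4 in KDM5-C70, a difference of -1.4 (exact permutation p = 0.393). Within the lists, the median HOX region stood at the 38.4th to 50.0th percentile of width, so HOX regions were of middling width or somewhat narrower in all 8.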

How the data were processed

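H3K4me3 ChIP-seq lists of 8 MM1S libraries were used, 5 with DMSO and 3 with KDM5-C70 at 50 uM for 7 days, grouped by the labels. Per the submitters' processing notes, the tools were MACS2 2.1.0, Bowtie 1.1.2, HOMER 4.8 and Trim Galore 0.40, with GRCh37, while the settings, and whether a control library was used, are not given in the sources. For each library the authors deposited a table of called regions (15 columns, no header). Beside positions, the deposited values per region are the authors' fold enrichment, which is a ratio, their display score, and -log10 values of the p-value and q-value. Of these, only the -log10 q-value was used, as a filter. Depth is unknown.

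Regions on chromosomes 1 to 22 and X were joined where they overlapped by at least 1 bp. Called bases in a window were clipped to it. Inner segments are the deposited blocks over 1 bp. The exact permutation test (2-sided, smaller tail doubled) was used for values per library. Fits across all features used limma 3.58.1 in R 4.3.3 with a variance trend and Benjamini-Hochberg adjustment at 0.05: log2(called bases + 200 bp) over windows with calls in 2 or more libraries per group, and log2 called bases over regions called in all 8. The rest was done in Python 3.11.15 (pandas 2.3.3, numpy 2.4.6, scipy 1.17.1, matplotlib 3.10.9). Interval steps and limma were tested on simulated data. Named regions were, by rule, all those called in all 8 libraries, those called in a whole group and not in the other, and those whose groups did not overlap. Regions given beside these were picked after their values were seen. The windows, genes and tests were chosen with earlier results of these data known. Alternatives were inner segments only, stricter lists, joining within 1000 bp, lists of equal length, windows widened by 10 kb, centring, no trend, a pseudocount of 1000 bp, other filters, the replicate block, the set of libraries as a term and leaving out each library. The 2 sets taken alone were added later.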

Additional observations from a re-analysis of the deposited data

Results flagged for a closer look

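A check for single DMSO libraries that stand apart from the other 4 covered 35 sets of DMSO values. It picked out 2, and chance alone picks out about 5% of sets. In HOXA region b, DMSO 2 had a called width of 452 bp, while the other DMSO libraries had 957 to 1092 bp. In HOXB region p, at the HOXB13 end of the cluster, DMSO 3 had 897 bp, while the others had 225 to 377 bp.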

How the results depend on the processing

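The exact tests called no cluster as deposited. Stricter lists gave a call for the number of HOXB regions, and the other alternatives that keep all 8 libraries gave none. No HOX region or window was called by limma under any alternative. Signs of differences this small turned often, and where not said otherwise the cause was not tested. All values below are KDM5-C70 minus DMSO, except counts of regions called in every library. With a -log10 q-value of at least 5, the difference in regions was -1.07 in HOXA, -4.73 in HOXB and -3.67 in HOXC. The difference in called bases was -1387 bp in HOXA, -4141 bp in HOXB, -2817 bp in HOXC and -1868 bp in HOXD. The difference in share was 0.0256% in HOXA, 0.0129% in HOXB and 0.00201% in HOXC. The difference in inner share was 22.8 points in HOXC. The regions called in every library were 0 in HOXA, 0 in HOXB, 0 in HOXC and 0 in HOXD. The 0 regions in every library there follow from lists without any call in 1 or more clusters. With lists of equal length, the difference in regions was -1.2 in HOXA and -1.13 in HOXC. The difference in called bases was -624 bp in HOXA, -487 bp in HOXB and -1048 bp in HOXC. The regions called in every library were 2 in HOXA, 4 in HOXB, 0 in HOXC and 2 in HOXD. With windows widened by 10 kb, the difference in regions was 0.133 in HOXD. With inner segments only, the difference in regions was -2.13 in HOXA, 1.8 in HOXB and 1.53 in HOXD. The difference in called bases was -231 bp in HOXA, -456 bp in HOXB and -384 bp in HOXD. In the 5 longer lists alone, the difference in regions was 0.167 in HOXD. The regions called in every library were 8 in HOXC. In the 3 short lists alone, the difference in regions was -1 in HOXC. The difference in called bases was -380.5 bp in HOXB, -63.5 bp in HOXC and -468 bp in HOXD. The difference in share was 0.0026% in HOXA and 0.000617% in HOXC. The difference in inner share was 1.64 points in HOXB and 3.3 points in HOXD. For windows with centring, the log2 change was -0.057 in HOXA, -0.15 in HOXB and -0.16 in HOXD. For regions with centring, the log2 change was -0.013 in HOXD region a, -0.053 in HOXD region e, -0.14 in HOXD region h, -0.10 in HOXA region k, -0.11 in HOXB region a, -0.048 in HOXB region d, -0.023 in HOXB region e, -0.060 in HOXB region h and -0.039 in HOXB region j. For windows with the set of libraries as a term, the log2 change was -0.0027 in HOXB and -0.0077 in HOXD. For regions with the set of libraries as a term, the log2 change was -0.026 in HOXD region h and -0.012 in HOXB region a. For windows with that term and centring, the log2 change was -0.044 in HOXA, -0.15 in HOXB and -0.15 in HOXD. For regions with that term and centring, the log2 change was -0.038 in HOXD region a, -0.060 in HOXD region e, -0.14 in HOXD region h, -0.080 in HOXA region k, -0.13 in HOXB region a, -0.034 in HOXB region d, -0.052 in HOXB region e, -0.058 in HOXB region h and -0.0099 in HOXB region j. With the set of libraries as a term and centring, limma called 3 of all windows and 27 of all regions. With the replicate block, it called 10 of all regions and 0 windows, against 0 as fixed. That fit kept only libraries numbered 1 to 3, so DMSO 4 and DMSO 5 were left out. In it the HOXC window had a log2 change of 0.81 (limma unadjusted p = 0.048, adjusted p = 0.88). Of 13039 windows, 359 had an unadjusted p under 0.05 there. Same-numbered libraries deviated together for numbers 1 and 3 (correlation 0.61 and 0.52 over windows) and apart for number 2 (-0.49). Libraries with unlike numbers also deviated together, at 0.67 for DMSO 2 with KDM5-C70 1 and 0.42 for DMSO 3 with KDM5-C70 2. The correlation was above 0 within a set of short or longer lists and below 0 between the sets. The numbers were therefore not taken as pairs, and the block changed no HOX call. The regions in the lists labelled DMSO 3, 4 and 5 also carry other numbers, 4, 5 and 6, in their names. Leaving out each library in turn, the number of regions ranged from -0.9 to 1.1 in HOXA, -2.8 to 0.7 in HOXB, -1.4 to 4.1 in HOXC and -0.7 to 0.3 in HOXD. The called bases ranged from -140.3 to 1574 bp in HOXA, -801 to 2712 bp in HOXB, -635 to 2813 bp in HOXC and -359 to 1109 bp in HOXD. The share of called bases ranged from -0.00396 to 0.000663% in HOXA and -0.00445 to 0.00323% in HOXC. The inner share ranged from -20.3 to 1.78 points in HOXC. The log2 change of windows ranged from -0.047 to 0.38 in HOXA, -0.12 to 0.39 in HOXB, -0.28 to 0.98 in HOXC and -0.14 to 0.35 in HOXD. The log2 change of regions ranged from -0.13 to 0.56 in HOXD region a, -0.19 to 0.26 in HOXD region e, -0.12 to 0.29 in HOXD region h, -0.070 to 0.84 in HOXA region g, -0.070 to 0.15 in HOXA region k, -0.18 to 0.37 in HOXC region h, -0.15 to 0.32 in HOXB region a, -0.034 to 0.30 in HOXB region d, -0.23 to 0.59 in HOXB region e, -0.015 to 0.31 in HOXB region h, -0.087 to 0.24 in HOXB region j and -0.61 to 0.17 in HOXB region p. With fewer libraries no exact test could pass: the smallest possible p is 0.0571 without a DMSO library, 0.0952 without a KDM5-C70 library, 0.2 in the 5 longer lists and 0.667 in the 3 short lists, so these say nothing about calls.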
